A study of Mus musculus with 9 samples.

Results

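The collagen genes of mouse myoblasts were followed across overexpression of Pax7, overexpression of Pax3 and an empty vector control. A gene was counted as a collagen when its symbol had the form Col, a type number, a and a chain number, and 44 of the 19661 measured genes met that rule. The cells were myoblasts, the dividing precursors of skeletal muscle fibres, on a Balb/c background, and per the labels all 3 groups were cultured in F10 medium that held 20% fetal bovine serum and 4 ng/ml of basic fibroblast growth factor (bFGF). The groups, of 3 arrays each, were Pax7 overexpression, Pax3 overexpression and an empty vector control that the labels call CTAP. Pax3 and Pax7 are closely related paired-box transcription factors of muscle progenitors and satellite cells. Nothing in the labels tells whether replicates were separate cultures, so each p-value reflects the scatter among these samples alone, and that scatter may be technical. The promoter of the transgenes, and whether the lines were clones, is not given in the sources used here.

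Collagens are secreted proteins in which 3 chains wind into a triple helix, and they fall into classes by the structures they build. Fibrillar collagens (types I, II, III, V, XI, XXIV and XXVII) form the cross-banded fibrils of connective tissue. Type IV collagen forms the network of the basement membrane that wraps each muscle fibre and its satellite cell, and types XV and XVIII sit in or next to that sheet. The other classes coat fibrils, build beaded microfibrils, span the cell membrane or form short-chain networks. By this grouping the array measured 11 fibrillar, 8 basement membrane and 25 other collagen genes.

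RefSeq's table of promoters (build GRCm38.p6) held a window for 35 of the 44 genes. The 250 bases before the start of transcription are shown for 4 genes of contrasting behaviour: Col4a2, a basement membrane chain that was lower in both overexpressing groups; Col8a1 and Col19a1, which had the largest rises; and Col3a1, which was lowest in the Pax7 group. Capitals mark, on either strand, the TATA box as TATAAA, the box named for its letters CCAAT, and the GC box as GGGCGG. The windows are chr8:11312555-11312804 on the plus strand for Col4a2, chr16:57754738-57754987 on the minus strand for Col8a1, chr1:24587438-24587687 on the minus strand for Col19a1 and chr1:45311288-45311537 on the plus strand for Col3a1.
Col4a2: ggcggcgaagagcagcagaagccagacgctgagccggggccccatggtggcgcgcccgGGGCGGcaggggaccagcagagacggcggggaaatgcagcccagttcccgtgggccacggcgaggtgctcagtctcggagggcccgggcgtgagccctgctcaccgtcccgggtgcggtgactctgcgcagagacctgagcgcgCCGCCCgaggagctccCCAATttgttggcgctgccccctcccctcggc
Col8a1: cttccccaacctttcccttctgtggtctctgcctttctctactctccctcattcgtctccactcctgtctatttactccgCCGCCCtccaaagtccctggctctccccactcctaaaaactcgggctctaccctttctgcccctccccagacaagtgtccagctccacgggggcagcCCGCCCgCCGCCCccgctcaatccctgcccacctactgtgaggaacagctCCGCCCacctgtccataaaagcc
Col19a1: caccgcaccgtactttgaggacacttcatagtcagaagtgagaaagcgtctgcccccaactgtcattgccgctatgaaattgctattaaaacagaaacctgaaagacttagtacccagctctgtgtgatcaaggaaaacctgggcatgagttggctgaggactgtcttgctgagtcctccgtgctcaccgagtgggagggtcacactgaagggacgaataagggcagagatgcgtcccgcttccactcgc
Col3a1: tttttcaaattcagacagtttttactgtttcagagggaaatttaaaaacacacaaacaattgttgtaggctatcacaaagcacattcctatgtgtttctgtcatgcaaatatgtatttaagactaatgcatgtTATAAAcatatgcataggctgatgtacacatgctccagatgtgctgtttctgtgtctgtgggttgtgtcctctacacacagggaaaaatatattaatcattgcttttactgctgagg
The Col8a1 window held 4 GC boxes, that of Col4a2 held 2 GC boxes and 1 CCAAT box, that of Col3a1 held 1 TATA box, and that of Col19a1 held none of these. Among the 35 collagen genes with a window, 21 had a GC box, against 32.7% of all 32851 windows in the table, 13 had a CCAAT box, against 33.8%, and 5 had a TATA box, against 12.4%. The palindromes TAATNNATTA and TAATNNNATTA, a form of site that paired-type homeodomains can bind as dimers, were searched on both strands and occurred in 0 of the 35 genes' windows, against 0.384% and 0.463% of all windows. The median GC content was 59.0% in the collagen windows and 52.4% in all windows. Col4a1 and Col4a2 lie head to head on chromosome 8 with starts 21 bases apart, so RefSeq windows for the pair, which reach into the genes, share 78 bases. The 250 bases before the Col4a1 start are chr8:11312827-11313076 on the minus strand. By these starts the 2 transcripts overlap at their ends, and the Col4a2 window shown lies downstream of the Col4a1 start, within that gene.

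The arrays were first checked against their labels. Pax7 averaged 12.28 ± 0.03 on the log2 intensity scale in the Pax7 arrays, 8.18 ± 0.06 in the Pax3 arrays and 10.51 ± 0.08 in the control arrays (SD, n = 3 each). Pax3 averaged 6.82 ± 0.04 in the Pax7 arrays, 11.05 ± 0.05 in the Pax3 arrays and 5.83 ± 0.07 in the control arrays. Transcripts of the sex chromosomes also split the groups: Xist averaged 11.72 in the Pax7 arrays, 11.96 in the Pax3 arrays and 4.77 in the control arrays, and the Y-linked Eif2s3y averaged 3.08, 3.12 and 8.78 in that order of groups. The introduced factor and the origin of the cells therefore cannot be told apart in either comparison against control. The Pax7 and Pax3 arrays were both high in Xist and low in Eif2s3y, which does not settle whether these 2 groups share an origin. Between them Xist was lower in the Pax7 arrays by a small margin (-0.24 ± 0.06 log2, adjusted p = 0.0262), and Eif2s3y did not pass (adjusted p = 0.635). The log2 of the summed linear intensities of 8 myoblast markers was 14.34 to 14.37 in the Pax7 arrays, 14.56 to 14.58 in the Pax3 arrays and 14.57 to 14.60 in the control arrays, and the defining factor Myod1 averaged 12.18, 12.50 and 12.62. Members of that list moved apart: against control 1 passed as higher and 4 as lower in the Pax7 group, with differences from -1.33 to 2.02 log2. In the Pax3 group 2 were higher and 3 lower, with differences from -0.73 to 1.97 log2. Of all genes 21.6% were higher and 21.5% lower in the Pax7 group, and 19.8% and 19.7% in the Pax3 group.

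Pax3 replicate 3 stood apart for the collagens. It was the highest of its group for 38 of the 44 genes (86.4%), against 38% of all genes, and its median deviation from the group mean was 0.10 log2, against -0.03 and -0.07 for Pax3 replicates 1 and 2. Among all genes below the median level it was the highest of its group for 59.3%, and among those above it for 16.7%. The counts of collagen genes that passed are therefore also given without that array, for the family and for each group in which they move.

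**Figure D1:**
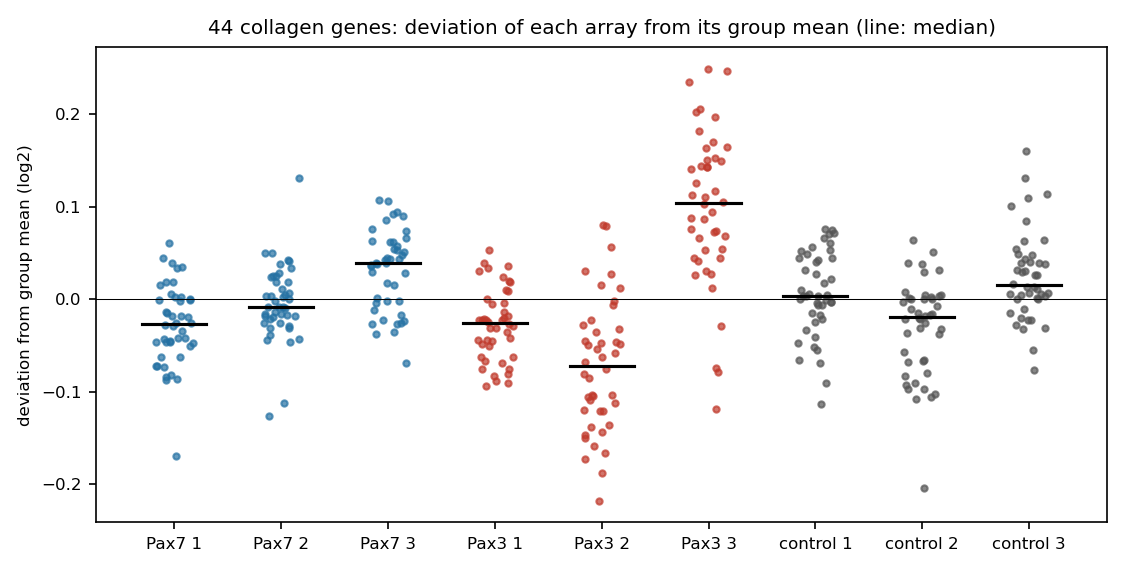
Deviation of each of the 44 collagen genes from the mean of its own group (log2, vertical axis) on each of the 9 arrays (horizontal axis, Pax7, Pax3 and control arrays from left to right), with 1 point per gene and a black bar at the median. The Pax3 replicate 3 points lie mostly above 0, with a median of 0.10.

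Against control, 14 of the 44 collagen genes (31.8%) passed the threshold in the Pax7 group, where 43.2% of all genes did. Passing means a Benjamini-Hochberg adjusted p under 0.05 over all 19661 genes in limma's moderated test. Of these, 7 were higher and 7 lower (21.6% and 21.5% of all genes). In the Pax3 group 12 collagen genes (27.3%) passed against control, 5 higher and 7 lower, where 39.6% of all genes passed, 19.8% higher and 19.7% lower. Between the overexpressing groups 8 collagen genes (18.2%) passed, 5 higher and 3 lower in the Pax7 group, where 16.9% of all genes passed, 8.33% higher and 8.54% lower. With all 9 arrays, the shares of collagen genes past the threshold thus lay below the share of all genes in both comparisons against control. Between Pax7 and Pax3 the share was near that of all genes, which did not hold without Pax3 replicate 3, as given below. The 2 comparisons against control share their control arrays. As these are bulk samples, fewer cells of a type and less RNA per cell cannot be told apart.

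Leaving out Pax3 replicate 3 changed the count between Pax7 and Pax3 most. Without it 15 collagen genes (34.1%) passed between Pax7 and Pax3, 12 higher and 3 lower in the Pax7 group. Of all genes 21.8% then passed, 9.78% higher and 12% lower, so the collagen share lay above that of all genes. The Pax7 group then differed from control in 19 collagen genes (43.2%), 11 higher and 8 lower, where 47.1% of all genes passed, 24.2% higher and 22.8% lower. The Pax3 group differed in 15 (34.1%), 5 higher and 10 lower, where 39.4% of all genes passed, 20.1% higher and 19.3% lower. The counts past 1 log2 unit were the same as with it.

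Most differences were small. The median difference over the 44 genes was 0.08 log2 for Pax7 minus control, 0.04 for Pax3 minus control and 0.04 for Pax7 minus Pax3, against 0.03, 0.02 and 0.01 over all genes in the same order. A difference of at least 1 log2 unit that passed was found for 3 collagen genes in the Pax7 group against control (6.58% of all genes), 2 higher and 1 lower (3.29% of all genes in each direction). The Pax3 group also had 3 (4.8% of all genes), 2 higher (2.29%) and 1 lower (2.51%). Between Pax7 and Pax3 the count was 0, where 0.895% of all genes passed, 0.565% higher and 0.331% lower. The genes were Col8a1 and Col19a1, higher in both overexpressing groups, with Col5a2 lower in the Pax7 group and Col12a1 lower in the Pax3 group. The groups did not overlap for 21 collagen genes between Pax7 and control (55.5% of all genes), 12 between Pax3 and control (45.1%) and 9 between Pax7 and Pax3 (29.4%). Without Pax3 replicate 3 the last of these counts was 23 (48.5% of all genes).

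**Figure D2:**
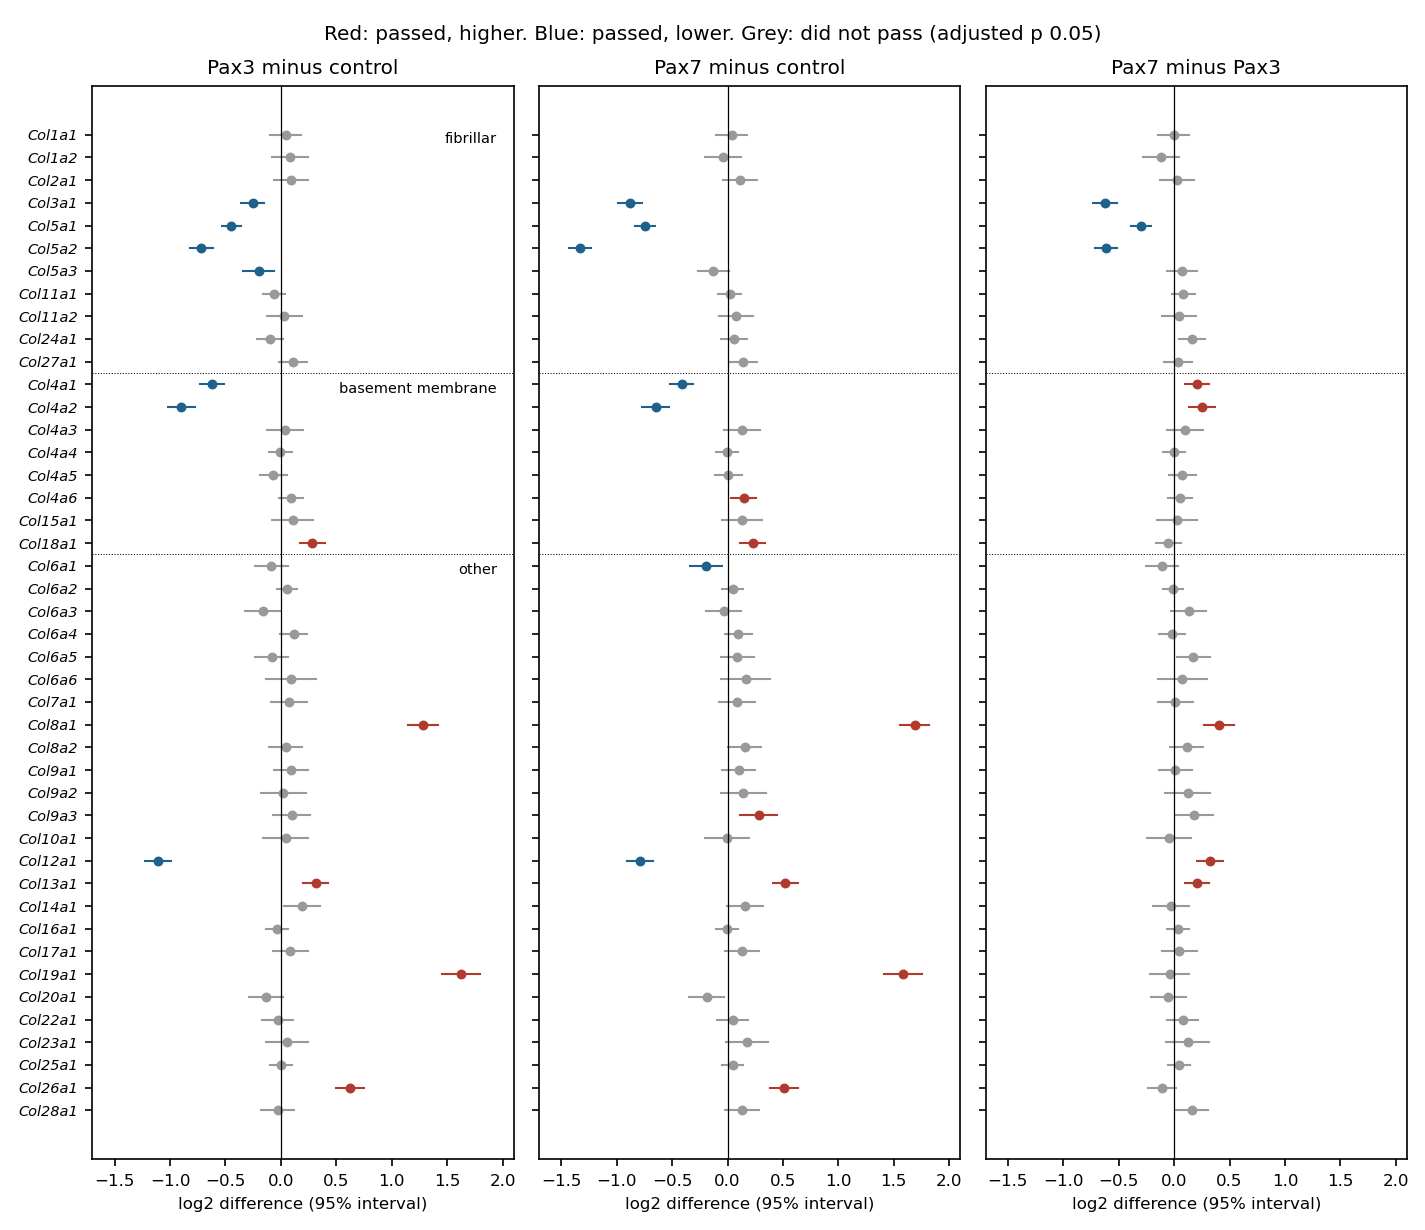
Log2 difference (horizontal axis) with its 95% interval for each of the 44 collagen genes (rows, grouped as fibrillar, basement membrane and other) in Pax3 minus control, Pax7 minus control and Pax7 minus Pax3. Red points passed and were higher, blue points passed and were lower and grey points did not pass, and in the last panel no point reaches 1 log2 unit on either side.

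The probe sets' signal level went with the count of calls. Of the 20 collagen genes above the median level of all genes (6.88), 12 (60%) passed in the Pax7 group against control, where 65% of all genes above it did, and 11 (55%) passed in the Pax3 group, where 61.7% did. Of the 24 below it, 2 (8.33%) passed in the Pax7 group against control, where 21.3% of such genes did, and 1 (4.17%) passed in the Pax3 group, where 17.5% did. Between Pax7 and Pax3, 8 of the 20 brighter collagen genes (40%) passed, where 26.4% of brighter genes did, and 0 of the 24 dimmer ones, where 7.33% of dimmer genes did. The count of 0 rests on Pax3 replicate 3: without it Col6a3, Col24a1, Col28a1 and Col6a5 passed among the 24 (16.7%), where 11.6% of dimmer genes did, and 4 of the 24 passed in each comparison against control (25.1% of dimmer genes for Pax7 and 17.8% for Pax3). The 95th percentile of 1012 olfactory receptor genes, most of which are silent outside the nose, was 5.50 to 5.71 on the 9 arrays. All 9 arrays were above it for 41 of the 44 collagen genes, and the exceptions were Col10a1 (6 arrays below), Col4a6 (2 arrays) and Col28a1 (1 array).

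Among the 11 fibrillar collagen genes, 3 fell and 0 rose against control in the Pax7 group, and 4 fell and 0 rose in the Pax3 group. Of all genes 21.5% fell in the Pax7 group and 19.7% in the Pax3 group. Without Pax3 replicate 3 the counts were 3 lower and 1 higher in the Pax7 group (22.8% and 24.2% of all genes), with Col27a1 the higher gene. In the Pax3 group they were then 5 lower and 0 higher (19.3% and 20.1% of all genes). The genes that fell were both ubiquitous chains of type V, the single chain of type III and, in the Pax3 group, the minor type V chain Col5a3. Both chains of type I, the main collagen of bone, tendon and skin, did not pass in any comparison. The median difference of the 11 genes was 0.02 log2 in the Pax7 group and -0.06 in the Pax3 group against control. Between Pax7 and Pax3, 3 were lower and 0 higher in the Pax7 group (8.54% and 8.33% of all genes). Without Pax3 replicate 3 these counts were 3 and 1 (12% and 9.78% of all genes), with Col24a1 the higher gene.

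Col5a2, a chain of the type V collagen that starts the assembly of fibrils, was 8.26, 8.28 and 8.23 in the Pax7 arrays, 8.89, 8.93 and 8.79 in the Pax3 arrays and 9.62, 9.55 and 9.59 in the control arrays. The 3 groups did not overlap, with the Pax7 arrays lowest and the control arrays highest. The difference from control was -1.33 ± 0.05 in the Pax7 group (moderated SE; 2.51-fold lower, adjusted p = 1.31e-09) and -0.72 ± 0.05 in the Pax3 group (1.64-fold lower, adjusted p = 2.94e-07). The Pax7 arrays were also 1.53-fold below the Pax3 arrays (adjusted p = 5.59e-06). Its partner chain Col5a1 had the same order, at 7.63, 7.65 and 7.60 in the Pax7 arrays, 7.90, 7.93 and 7.93 in the Pax3 arrays and 8.41, 8.35 and 8.35 in the control arrays. Col5a1 was 1.67-fold lower in the Pax7 group (-0.74 ± 0.04 log2, adjusted p = 4.99e-08) and 1.36-fold lower in the Pax3 group (-0.45 ± 0.04, adjusted p = 4.5e-06), and it was 1.23-fold lower in Pax7 than in Pax3 (adjusted p = 0.000398). Chains of the heterotrimer thus moved in the same direction in all 3 comparisons.

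Col3a1 encodes the type III collagen of distensible tissues and of the connective tissue in muscle, and its window with a TATA box is shown above. Its values were 7.69, 7.67 and 7.70 in the Pax7 arrays, 8.29, 8.29 and 8.36 in the Pax3 arrays and 8.62, 8.47 and 8.61 in the control arrays, again without overlap. It fell by 0.88 ± 0.05 log2 in the Pax7 group (1.84-fold, adjusted p = 5.94e-08) and by 0.26 ± 0.05 in the Pax3 group (1.19-fold, adjusted p = 0.00135). The Pax7 arrays were 1.54-fold below the Pax3 arrays (adjusted p = 7.18e-06), a gap about as wide as that of Col5a2. Col3a1 and Col5a2 are neighbours on chromosome 1 in the RefSeq annotation. Col5a3 ranged from 6.62 to 6.66 in the Pax7 arrays, from 6.53 to 6.66 in the Pax3 arrays and from 6.68 to 6.91 in the control arrays. Its fall in the Pax3 group was 1.15-fold (-0.20 ± 0.06, adjusted p = 0.0252), and the call was lost without control replicate 3 (adjusted p = 0.0866), Pax3 replicate 1 (0.0897) or Pax3 replicate 2 (0.0730).

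Col1a1, the major chain of type I collagen, was 7.23, 7.23 and 7.30 in the Pax7 arrays, 7.23, 7.14 and 7.40 in the Pax3 arrays and 7.21, 7.18 and 7.24 in the control arrays. The groups overlapped, and the 95% interval of the difference from control was -0.10 to 0.17 log2 in the Pax7 group and -0.09 to 0.18 in the Pax3 group. Col1a2, its partner, was 7.05, 6.99 and 6.99 in the Pax7 arrays, 7.05, 7.01 and 7.34 in the Pax3 arrays and 7.05 in all 3 control arrays. The difference from control had an interval of -0.20 to 0.12 in the Pax7 group and -0.08 to 0.24 in the Pax3 group, where the high value was that of Pax3 replicate 3. The other fibrillar genes without a call in any comparison were Col2a1, Col11a1 and Col11a2 of cartilage, with Col24a1 and Col27a1. Col24a1 came nearest between Pax7 and Pax3, at 6.39 to 6.45 in the Pax7 arrays and 6.20 to 6.36 in the Pax3 arrays (0.16 ± 0.05, adjusted p = 0.0665).

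**Figure D3:**
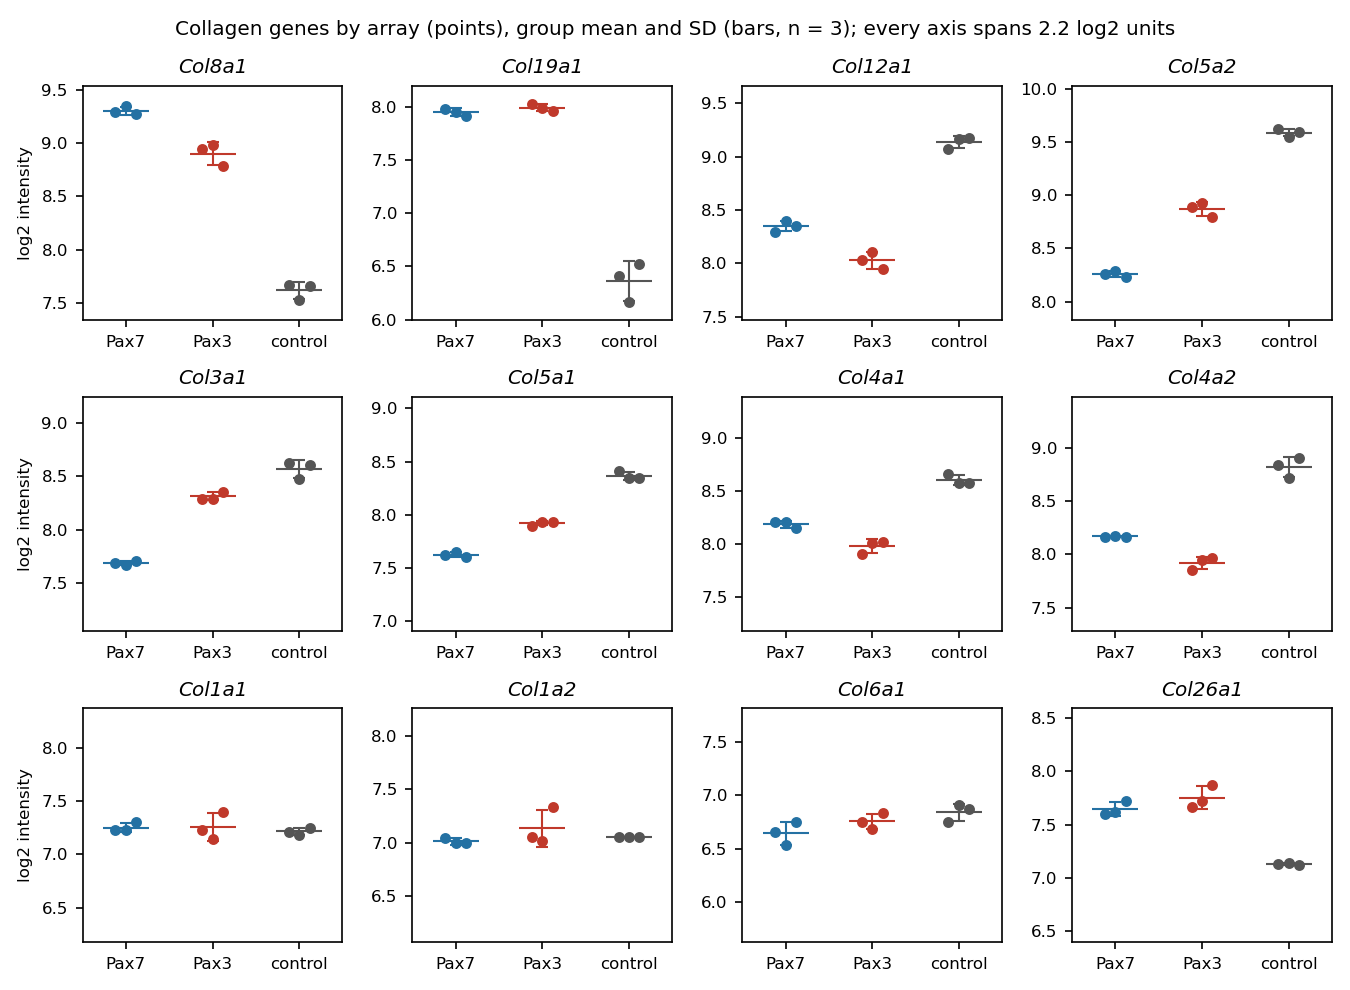
Log2 intensity (vertical axis) of 12 collagen genes on each array, in the Pax7, Pax3 and control groups from left to right, with group means and SDs as bars (n = 3). Every panel spans 2.2 log2 units, so the separate groups of Col8a1 (9.28 to 9.35, 8.78 to 8.98 and 7.53 to 7.67) can be set against the overlapping points of Col1a1.

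Summed fibroblast markers were also lower in the overexpressing groups. The log2 of the summed linear intensities of 8 measured fibroblast markers was 9.42 to 9.46 in the Pax7 arrays, 9.69 to 9.79 in the Pax3 arrays and 11.81 to 11.89 in the control arrays, the same order as Col5a2, Col3a1 and Col5a1. Of these 8, 2 were higher and 3 lower in the Pax7 group, and 1 higher and 3 lower in the Pax3 group. The falls included Islr (-4.58 ± 0.05 log2 in the Pax7 group and -4.14 ± 0.05 in the Pax3 group) and Postn (at least 11.1-fold lower in the Pax7 group, where it was below the olfactory level on all 3 arrays, and -2.58 ± 0.10 log2 in the Pax3 group), whereas Pdgfra was higher in both groups (0.58 ± 0.08 and 0.42 ± 0.08). The sum over 5 osteoblast markers was 8.21 to 8.25 in the Pax7 arrays, at most 8.06 in the Pax3 arrays and 9.23 to 9.39 in the control arrays, with 2 of the 5 below the olfactory level on all arrays. The sum over 7 chondrocyte markers was 9.58 to 9.71, 9.57 to 9.59 and 9.86 to 10.02 in the same order, with 3 of the 7 below that level. The sum over 8 epithelial markers ran the other way, at 11.23 to 11.31 in the Pax7 arrays, 10.79 to 10.82 in the Pax3 arrays and 8.87 to 9.02 in the control arrays. Endothelial markers (7 genes) summed to 8.46 to 8.52, 8.38 to 8.46 and 8.29 to 8.33, and Schwann cell markers (4 genes) to 9.31 to 9.37, 9.18 to 9.22 and 9.72 to 9.83, in the Pax7, Pax3 and control arrays. Against control, epithelial markers had 6 genes higher in the Pax7 group and 5 in the Pax3 group, and endothelial markers 2 and 1, with 0 lower in each. Schwann cell markers had 0 higher and 1 lower in each group. Of 6 macrophage markers 5 were below the olfactory level on all arrays. The sums hid members that moved apart: 1 osteoblast marker was higher and 2 lower, and 1 chondrocyte marker higher and 1 lower, in each overexpressing group. Chondrocyte differences ran from -0.81 to 2.09 log2 in the Pax7 group. Of all genes 21.6% were higher and 21.5% lower in the Pax7 group, and 19.8% and 19.7% in the Pax3 group. The part of these markers' cells in the collagen differences was not tested.

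Among the 8 basement membrane genes, 2 rose and 2 fell against control in the Pax7 group, and 1 rose and 2 fell in the Pax3 group. Of all genes 21.6% rose and 21.5% fell in the Pax7 group, and 19.8% rose and 19.7% fell in the Pax3 group. Both falls were of the chains that make up the ubiquitous type IV trimer. Col18a1 rose in both groups, and the other rise in the Pax7 group was of Col4a6. Between Pax7 and Pax3, 2 were higher in the Pax7 group and 0 were lower, where 8.33% of all genes were higher and 8.54% lower.

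Col4a2 was 8.17, 8.18 and 8.17 in the Pax7 arrays, 7.85, 7.95 and 7.96 in the Pax3 arrays and 8.84, 8.72 and 8.90 in the control arrays. Here the Pax3 arrays were lowest, and the groups did not overlap. Col4a2 was 1.57-fold lower in the Pax7 group (-0.65 ± 0.05, adjusted p = 1.85e-06) and 1.86-fold lower in the Pax3 group (-0.90 ± 0.05, adjusted p = 1.7e-07), with the Pax7 arrays 1.19-fold above the Pax3 arrays (adjusted p = 0.0084). Col4a1, which shares its promoter region, was 8.21, 8.21 and 8.15 in the Pax7 arrays, 7.90, 8.01 and 8.02 in the Pax3 arrays and 8.66, 8.58 and 8.57 in the control arrays. It fell by 0.42 ± 0.05 log2 in the Pax7 group (1.33-fold, adjusted p = 2.76e-05) and by 0.62 ± 0.05 in the Pax3 group (1.54-fold, adjusted p = 1.26e-06). The order of the groups was that of Col4a2. Its 1.15-fold gap between Pax7 and Pax3 (0.21 ± 0.05, adjusted p = 0.0122) was not called without Pax7 replicate 1 (0.0503) or Pax7 replicate 2 (0.0511).

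Col18a1, the source of the fragment endostatin, was 9.79 to 9.85 in the Pax7 arrays, 9.85 to 9.90 in the Pax3 arrays and 9.51 to 9.69 in the control arrays. It was 1.17-fold higher in the Pax7 group (0.23 ± 0.05, adjusted p = 0.00351) and 1.22-fold higher in the Pax3 group (0.28 ± 0.05, adjusted p = 0.000949), and the Pax7 and Pax3 arrays overlapped. Col4a6, an X-linked chain of specialised basement membranes, was 5.61 to 5.73 in the Pax7 arrays, 5.59 to 5.70 in the Pax3 arrays and 5.51 to 5.59 in the control arrays, near the olfactory level. Its 1.11-fold rise in the Pax7 group (0.14 ± 0.05, adjusted p = 0.0387) was not called without control replicate 2 or 3, Pax3 replicate 1, or Pax7 replicate 2 or 3 (adjusted p = 0.0503 to 0.136). Col4a3, Col4a4, Col4a5 and Col15a1 did not pass in any comparison. Col15a1, a multiplexin of muscle and vessel basement membranes, had 6.15 to 6.28 in the Pax7 arrays, 6.07 to 6.42 in the Pax3 arrays and 6.04 to 6.15 in the control arrays.

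Other components of the basement membrane moved in both directions. Of 17 measured partners (laminins, nidogens, heparan sulphate proteoglycans and others), 8 rose and 4 fell in the Pax7 group against control. That was 70.6% past the threshold, where 43.2% of all genes passed, 21.6% higher and 21.5% lower. In the Pax3 group 8 rose and 3 fell (64.7%), where 39.6% of all genes passed, 19.8% higher and 19.7% lower. Nid1, the nidogen that links laminin to type IV collagen, was 10.13, 10.11 and 10.08 in the Pax7 arrays, 9.69, 9.72 and 9.62 in the Pax3 arrays and 8.60, 8.63 and 8.72 in the control arrays. It rose while Col4a1 and Col4a2 fell, by 1.46 ± 0.05 log2 in the Pax7 group and 1.03 ± 0.05 in the Pax3 group (adjusted p = 7.5e-10 and 2.01e-08). Npnt, which encodes the integrin ligand nephronectin, rose by 1.28 ± 0.04 and 1.00 ± 0.04, and the muscle laminin chain Lama2 rose by 1.01 ± 0.05 and 0.93 ± 0.05 in the Pax7 and Pax3 groups. Lama3, a laminin chain of epithelia, lay below the olfactory level on all 3 control arrays (5.37 to 5.43), and it was at least 2.84-fold higher in the Pax7 group and at least 1.38-fold higher in the Pax3 group (adjusted p = 5.73e-10 and 3.03e-06). Such bounds take, for each array of the dim group, the olfactory level in place of a lower value. Lamc1, the common gamma chain of laminins, rose by 0.89 ± 0.05 in the Pax7 group and 0.74 ± 0.05 in the Pax3 group. The partners that fell in both groups, as Col4a1 and Col4a2 did, were Lamb3 (-0.70 ± 0.05 and -0.58 ± 0.05) and the laminin receptor Dag1 (-0.46 ± 0.04 and -0.38 ± 0.04). Lama5 (-0.39 ± 0.05) and the proteoglycan perlecan, Hspg2 (-0.19 ± 0.05), fell in the Pax7 group. Pxdn, a crosslinker of type IV collagen, passed as lower in the Pax3 group in the fit of all 9 arrays (-0.17 ± 0.06). That call was lost without any 1 array except Pax3 replicate 2 (adjusted p = 0.0537 to 0.117), and in the fit of only the groups compared (0.0832).

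**Figure D4:**
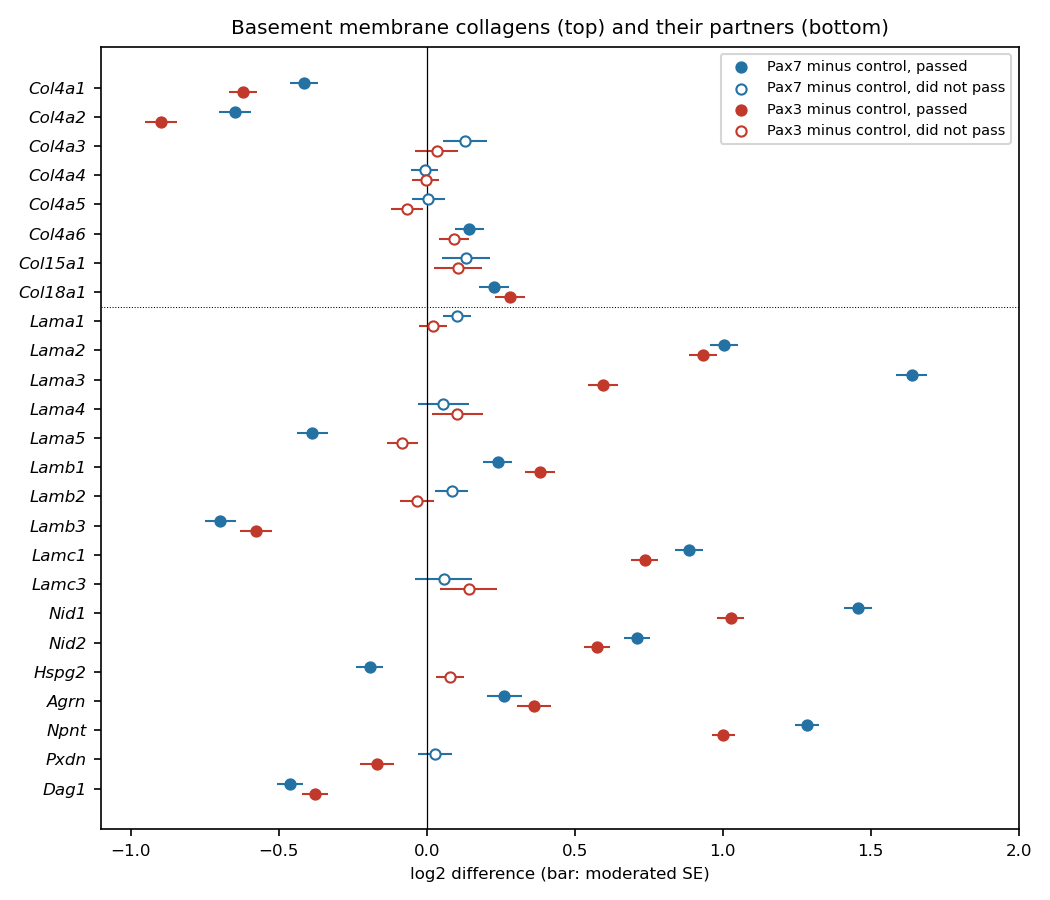
Log2 difference from control with its SE (horizontal axis) for the 8 basement membrane collagen genes (top rows) and 17 basement membrane partners (lower rows), in the Pax7 group and the Pax3 group. Filled points passed the threshold and open points did not, and Nid1, Npnt and Lama2 lie to the right of 0 while Col4a1, Col4a2, Lamb3 and Dag1 lie to the left.

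Of the 25 other collagen genes, 5 rose and 2 fell against control in the Pax7 group (21.6% and 21.5% of all genes), and 4 rose and 1 fell in the Pax3 group (19.8% and 19.7%). Those that rose in both groups were Col8a1, Col19a1, Col13a1 and Col26a1, and the Pax7 group also had Col9a3. Those that fell were Col12a1 in both groups and Col6a1 in the Pax7 group. The median difference of the 25 genes was 0.10 log2 in the Pax7 group and 0.05 in the Pax3 group. Between Pax7 and Pax3, 3 were higher in the Pax7 group and 0 were lower, where 8.33% of all genes were higher and 8.54% lower. Without Pax3 replicate 3 the counts were 9 and 0 (9.78% and 12% of all genes), with Col6a3, Col6a5, Col9a2, Col9a3, Col23a1 and Col28a1 added. Those against control were then 8 higher and 3 lower in the Pax7 group (24.2% and 22.8% of all genes). In the Pax3 group they were 4 higher and 3 lower (20.1% and 19.3% of all genes).

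Col8a1, a short-chain collagen of blood vessels and of Descemet's membrane in the cornea, was 9.29, 9.35 and 9.28 in the Pax7 arrays, 8.94, 8.98 and 8.78 in the Pax3 arrays and 7.67, 7.53 and 7.66 in the control arrays. All 3 groups were separate, with Pax7 highest. It was 3.22-fold higher in the Pax7 group (1.69 ± 0.06, adjusted p = 1.78e-09) and 2.43-fold higher in the Pax3 group (1.28 ± 0.06, adjusted p = 2.49e-08), and 1.32-fold higher in Pax7 than in Pax3 (adjusted p = 0.000855). Its usual partner chain Col8a2 did not pass, at 5.91 to 6.07 in the Pax7 arrays, 5.80 to 5.98 in the Pax3 arrays and 5.72 to 5.90 in the control arrays (0.15 ± 0.07 for Pax7 minus control, adjusted p = 0.0903). Col10a1, the third short-chain gene and a marker of growth-plate cartilage, was near the olfactory level and did not pass.

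Col19a1 belongs to the FACITs, the collagens that sit on fibrils, and in the mouse it is tied to the development of oesophageal muscle. It was 7.98, 7.95 and 7.91 in the Pax7 arrays, 8.02, 7.98 and 7.96 in the Pax3 arrays and 6.41, 6.16 and 6.53 in the control arrays. It was 2.99-fold higher in the Pax7 group (1.58 ± 0.08, adjusted p = 2.26e-08) and 3.08-fold higher in the Pax3 group (1.62 ± 0.08, adjusted p = 2.78e-08), while the Pax7 and Pax3 arrays overlapped (-0.04 ± 0.08, adjusted p = 0.806). Its neighbour on chromosome 1, the type IX chain Col9a1, did not pass (0.10 ± 0.07 in the Pax7 group and 0.09 ± 0.07 in the Pax3 group). Col12a1, a FACIT of tendon and muscle, went the other way, with 8.30, 8.40 and 8.35 in the Pax7 arrays, 8.03, 8.11 and 7.95 in the Pax3 arrays and 9.07, 9.17 and 9.18 in the control arrays. The groups did not overlap and the Pax3 arrays were lowest. Col12a1 was 1.73-fold lower in the Pax7 group (-0.79 ± 0.05, adjusted p = 3.41e-07) and 2.16-fold lower in the Pax3 group (-1.11 ± 0.05, adjusted p = 2.94e-08), with the Pax7 arrays 1.25-fold above the Pax3 arrays (adjusted p = 0.00171). Col9a3, another type IX chain, was 7.45 to 7.54 in the Pax7 arrays, 7.13 to 7.48 in the Pax3 arrays and 7.20 to 7.23 in the control arrays, and it was 1.21-fold higher in the Pax7 group (0.28 ± 0.07, adjusted p = 0.0106).

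Of the 4 transmembrane collagens, Col13a1 rose in both groups and the other 3 (Col17a1, Col23a1 and Col25a1) did not pass. Col13a1, which is needed at the neuromuscular junction, was 7.20 to 7.30 in the Pax7 arrays, 6.98 to 7.11 in the Pax3 arrays and 6.68 to 6.78 in the control arrays. It was 1.44-fold higher in the Pax7 group (0.52 ± 0.05, adjusted p = 6.82e-06) and 1.24-fold higher in the Pax3 group (0.31 ± 0.05, adjusted p = 0.000417). The 1.15-fold gap between Pax7 and Pax3 (0.21 ± 0.05, adjusted p = 0.0166) was not called without Pax3 replicate 1 (0.0594), Pax3 replicate 2 (0.0560) or Pax7 replicate 3 (0.0759). Col25a1, which takes part in the innervation of muscle, was 6.74 to 6.81 in the Pax7 arrays, 6.68 to 6.76 in the Pax3 arrays and 6.67 to 6.76 in the control arrays.

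Col26a1, a small collagen first described in testis and ovary, was 7.60 to 7.72 in the Pax7 arrays, 7.66 to 7.87 in the Pax3 arrays and 7.12 to 7.14 in the control arrays. It was 1.43-fold higher in the Pax7 group (0.51 ± 0.06, adjusted p = 2.17e-05) and 1.54-fold higher in the Pax3 group (0.62 ± 0.06, adjusted p = 5.54e-06). Type VI collagen builds the beaded microfibrils around muscle fibres, and mutations in its main chains cause muscular dystrophy. Col6a1 was 6.65, 6.53 and 6.75 in the Pax7 arrays, 6.75, 6.69 and 6.83 in the Pax3 arrays and 6.75, 6.91 and 6.87 in the control arrays. Its 1.15-fold fall in the Pax7 group (-0.20 ± 0.07, adjusted p = 0.032) came with groups that met at the same value, on Pax7 replicate 3 and control replicate 1, and was not called without control replicate 2 or 3 or Pax7 replicate 1 or 2 (adjusted p = 0.0717 to 0.132). The partner chains Col6a2 and Col6a3 did not pass, and the 95% interval of Col6a2 was -0.05 to 0.14 log2 in the Pax7 group and -0.04 to 0.15 in the Pax3 group. Col6a3 was 6.31 to 6.38 in the Pax7 arrays, 6.06 to 6.38 in the Pax3 arrays and 6.32 to 6.42 in the control arrays. Without Pax3 replicate 3, the Pax3 group's fall of Col6a3 passed (-0.25, adjusted p = 0.00412).

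The rest of the 25 did not pass in any comparison: Col6a4, Col6a5 and Col6a6; Col7a1 of the anchoring fibrils of skin; Col9a2, Col14a1, Col16a1, Col20a1 and Col22a1 among the FACITs; and Col28a1. Col22a1, a collagen of the junction between muscle and tendon, was 6.57 to 6.70 in the Pax7 arrays, 6.40 to 6.64 in the Pax3 arrays and 6.56 to 6.57 in the control arrays. Col20a1 came nearest to the threshold for Pax7 minus control, with 6.21 to 6.40 in the Pax7 arrays and 6.50 to 6.56 in the control arrays (-0.19 ± 0.07, adjusted p = 0.0511). Over all collagen genes that did not pass, 95% intervals lay within -0.34 and 0.39 log2 for Pax7 minus control (30 genes), within -0.32 and 0.35 for Pax3 minus control (32 genes) and within -0.29 and 0.35 for Pax7 minus Pax3 (36 genes).

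The 8 genes that differed between Pax7 and Pax3 on all 9 arrays fell into both directions, 5 higher and 3 lower, and without Pax3 replicate 3 the 15 that passed were 12 higher and the same count of 3 lower. The fibrillar Col3a1, Col5a2 and Col5a1 were lower in the Pax7 group, and Col8a1, Col12a1, Col4a2, Col4a1 and Col13a1 were higher. The largest of the higher differences was 0.40 ± 0.06 log2 for Col8a1 and the largest of the lower ones was -0.62 ± 0.05 for Col3a1.

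The genes that modify, process, bind and degrade collagen were measured on the same arrays. Of all genes above the median level 65% passed in the Pax7 group against control and 61.7% in the Pax3 group. Below that level 21.3% and 17.5% did. The gene lists, with the basement membrane partners above, were not split by level, and the part of level in their shares was not tested. Among 23 modifying enzymes and chaperones, 7 rose and 7 fell in the Pax7 group (60.9% passed, against 43.2% of all genes), and 7 rose and 11 fell in the Pax3 group (78.3%, against 39.6% of all genes). Plod2, the lysyl hydroxylase of collagen telopeptides, was 9.05, 9.10 and 8.89 in the Pax7 arrays, 9.86, 9.73 and 9.61 in the Pax3 arrays and 10.62, 10.59 and 10.58 in the control arrays, the order seen for Col5a2, Col3a1 and Col5a1. It fell by 1.59 ± 0.07 log2 in the Pax7 group and by 0.87 ± 0.07 in the Pax3 group. The prolyl 4-hydroxylase subunit P4ha3 fell by 0.95 and 0.67 log2 and the endoplasmic reticulum chaperone Fkbp14 by 0.65 and 0.86 in the Pax7 and Pax3 groups. Tmem38b, an ion channel of the endoplasmic reticulum, fell by 0.70 and 0.25, and P3h3, of the prolyl 3-hydroxylase family, was higher by 0.48 and 0.78 log2 in the Pax7 and Pax3 groups.

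Among 20 genes of procollagen processing and crosslinking, 5 rose and 6 fell in the Pax7 group, and 4 rose and 7 fell in the Pax3 group (55% passed in each, against 43.2% and 39.6% of all genes). The fibril-binding proteoglycan Bgn was 6.80, 6.90 and 6.76 in the Pax7 arrays, 7.41, 7.40 and 7.27 in the Pax3 arrays and 9.75, 10.07 and 10.09 in the control arrays. Bgn was thus 8.89-fold lower in the Pax7 group (-3.15 ± 0.09) and 6.11-fold lower in the Pax3 group (-2.61 ± 0.09), a wider difference than that of any collagen gene. Its relative Ogn differed by -1.76 and -1.46, the crosslinking oxidase Loxl1 by -1.46 and -0.49, and the procollagen proteinase enhancer Pcolce2 by 1.27 and 1.00 in the Pax7 and Pax3 groups. Adamts14, which removes the amino-terminal propeptide, was higher by 0.74 ± 0.05 log2 in the Pax7 group and 1.67 ± 0.05 in the Pax3 group.

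Of 9 collagen receptors, 4 rose and 2 fell in each overexpressing group against control (66.7% passed in each, against 43.2% of all genes for Pax7 and 39.6% for Pax3). Itga2, the alpha subunit of a collagen-binding integrin, was 10.23, 10.35 and 10.39 in the Pax7 arrays, 10.24, 10.32 and 10.23 in the Pax3 arrays and 5.32, 5.38 and 5.40 in the control arrays. The control values lay below the olfactory level, so Itga2 was at least 27.6-fold higher in the Pax7 group and at least 26.6-fold higher in the Pax3 group (adjusted p = 3.26e-13 and 3.67e-13). Itga1, the alpha subunit of another collagen-binding integrin, also lay below that level on the control arrays (4.71 to 4.96) and was at least 2.16-fold and at least 1.31-fold higher. Of the receptor kinases, Ddr2 rose by 0.75 and 0.76, and Ddr1 differed by -0.59 and -0.72 in the Pax7 and Pax3 groups. Mrc2, which takes up collagen for breakdown, was higher by 0.25 and 0.77 log2.

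Of 14 collagen-degrading enzymes and inhibitors, 3 rose and 4 fell in the Pax7 group, and 2 rose and 5 fell in the Pax3 group (50% passed in each, against 43.2% and 39.6% of all genes). Among those 5, Timp2 (-0.10 log2) lost its call when any 1 array was left out (adjusted p = 0.0519 to 0.120). The inhibitor Timp3 was 5.21, 5.35 and 5.66 in the Pax7 arrays, 5.48, 5.56 and 5.50 in the Pax3 arrays and 10.23, 10.27 and 10.35 in the control arrays. It was at least 25.2-fold lower in the Pax7 group, where all 3 arrays were below the olfactory level. In the Pax3 group, where 2 of 3 were, it was at least 25.5-fold lower. Its relatives Timp1 (0.91 and 0.63) and Timp4 (at least 0.22 and 0.56) were higher in the Pax7 and Pax3 groups, so the inhibitors did not share a direction. For Timp4, 2 of 3 control arrays were below the olfactory level. The metalloproteinases Mmp16 (-1.35 and -1.36) and the gelatinase Mmp2 (-1.11 and -0.17) were lower.

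Of 30 transcription factors and signalling genes known to act on collagen genes, 9 rose and 9 fell in the Pax7 group (60% passed, against 43.2% of all genes), and 6 rose and 11 fell in the Pax3 group (56.7%, against 39.6%). Among those 11, Sox6 (-0.15 log2) lost its call without any 1 array except control replicate 1 (adjusted p = 0.0504 to 0.161). The osteoblast factor Sp7 differed by -2.31 and -2.40, and the ligand Tgfb3 by -1.41 and -1.60, in the Pax7 and Pax3 groups. In the same order of groups Klf4 differed from control by 1.67 and 0.30 and the cartilage factor Sox9 by -0.81 and -0.53 on the log2 scale. The receptor Tgfbr1 differed by -0.63 and -0.90 and its effector Smad3 by -0.19 and -0.76. Between Pax7 and Pax3, the modifying enzymes and chaperones had 4 genes higher and 5 lower in the Pax7 group, processing and crosslinking 2 and 4, receptors 1 and 1, degrading enzymes and inhibitors 3 and 2, basement membrane partners 4 and 2, and the transcription factors 10 and 3, where 8.33% of all genes were higher and 8.54% lower. Standard errors over these 113 genes ran from 0.04 to 0.10 log2.

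**Figure D5:**
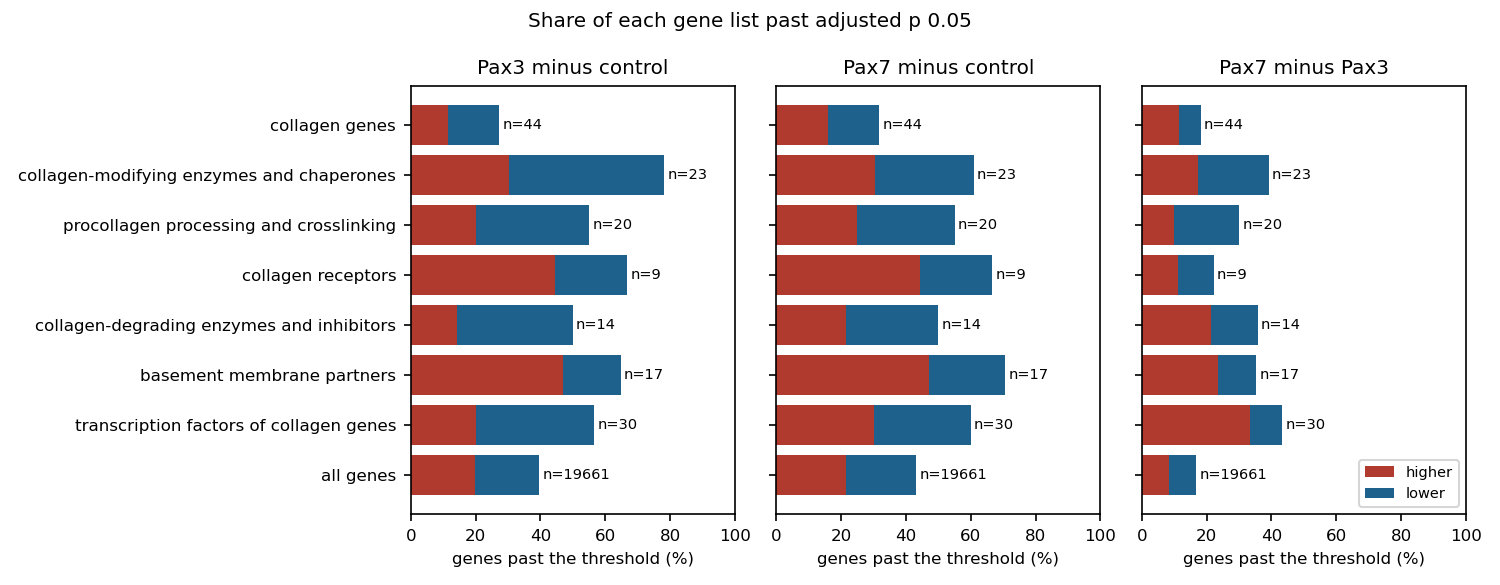
Share of each gene list past the threshold (horizontal axis, percent of its measured genes) in Pax3 minus control, Pax7 minus control and Pax7 minus Pax3, split into higher (red) and lower (blue), with all 19661 genes in the lowest row. The bar of the 44 collagen genes ends at 27.3%, 31.8% and 18.2% in the 3 panels, and that of all genes at 39.6%, 43.2% and 16.9%.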

How the data were processed

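Total RNA was hybridised to Affymetrix mouse gene arrays, 1 array per sample. The authors deposited log2 intensities after RMA in R 2.10.0, per the submitters' processing notes, and neither genome build nor annotation version is given in the sources used here. Array medians ran from 6.40 to 6.48, and the number of arrays limits the precision.

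Of 25668 probe sets, 20777 carried 1 symbol in the platform annotation, 232 several and 4659 none, and 20696 matched RefSeq gene identifiers. Each of 19661 genes was taken at the probe set with the highest mean, a choice that among the collagens concerned Col6a5 and Col6a6. Levels of different probe sets were not compared. limma 3.58.1 (R 4.3.3) fitted a mean per group over all 9 arrays (residual df 6, prior df 4.37), tested on simulated data first, with Benjamini-Hochberg adjustment over all genes at 0.05. Errors of differences are moderated standard errors and intervals are at 95%. All 44 members matched RefSeq, which also gave promoters and neighbouring genes (GRCm38.p6).

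Collagens were named as a family. Values on every array were given for members past the threshold by at least 1 log2 unit and for Col1a1, Col1a2, Col3a1, Col4a1, Col4a2, Col5a1 and Col6a1. Up to 4 genes per list and comparison against control with the largest differences were named. For Pax7 minus Pax3 the lists were given by counts alone. Islr, Postn, Pdgfra and Myod1, array values of some list genes, and the basement membrane partners that fell, lie outside that rule and were chosen after their values were seen. The members and lists were chosen with earlier results of these data known. Alternatives varied the normalization, the filter on dim genes, the prior, the arrays used, the probe set rule and the test.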

Additional observations from a re-analysis of the deposited data

How the results depend on the processing

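No direction of a called collagen difference reversed under any alternative run: leaving out each array in turn, a replicate block, quantile normalization again, centring on array medians, leaving out the dimmest 50% of genes, a trended robust prior, fitting only the groups compared, averaging probe sets, and testing against a fold of 1.2 (treat in limma). The last asks for a larger difference by construction. With it 3819 genes passed for Pax7 minus control, 3264 for Pax3 minus control and 784 for Pax7 minus Pax3. Collagen genes that passed then numbered 10, 8 and 2 in that order, 4, 3 and 0 higher and 6, 5 and 2 lower. In both comparisons against control the collagen share then lay slightly above that of all genes, whereas it lay below it in the main test. The 2 collagens that passed for Pax7 minus Pax3 were Col3a1 and Col5a2. At an unadjusted p under 0.05 that test had 1 collagen higher in Pax7 than in Pax3, where limma's ordinary moderated test called 5. Over the fits that leave out 1 array, collagen genes past the threshold numbered 12 to 19 for Pax7 minus control. Of these 6 to 11 were higher and 6 to 8 lower. For Pax3 minus control they numbered 11 to 15, 5 to 6 higher and 6 to 10 lower. For Pax7 minus Pax3 they numbered 7 to 15, 4 to 12 higher and 3 lower each time. All genes past the threshold numbered 7519 to 9253, 6903 to 7753 and 2507 to 4277 in the same order. The upper ends of 19, 11, 15 and 12 came without Pax3 replicate 3, as did those of all genes. Counts by collagen group without it stand with the results. With replicate numbers as a block 16, 13 and 8 collagen genes passed (8707, 7902 and 3328 of all genes), and the 1.11-fold rise of Col4a6 in the Pax7 group lost its call (adjusted p = 0.0529). The deviations of same-numbered arrays correlated at -0.03 to 0.22, and not every array correlated best with its own number, so the numbers were not taken as a pairing. Other settings that ended calls were quantile normalization again (Col4a6, adjusted p = 0.109), centring (Col4a6, 0.0627) and the trended robust prior (Col4a6, 0.0729) for Pax7 minus control, and the fit of only the groups compared (Col5a3, 0.0625) for Pax3 minus control. Settings also added calls. Among them, Col14a1 passed for Pax3 minus control with the block (adjusted p = 0.0138) and quantile normalization again (0.0270). For Pax7 minus control Col20a1 passed with the block (0.0240), quantile normalization again (0.0106) and centring (0.0389). Col27a1 passed there without the dimmest 50% of genes (0.0362). Without the dimmest 50% of genes, 20 collagens were left among 9830 genes. The collagens that passed numbered 13, 11 and 8 for Pax7 minus control, Pax3 minus control and Pax7 minus Pax3. Of all 9830 genes 6846, 6528 and 3206 passed in that order. The medians of the basement membrane group were then -0.42, -0.62 and 0.21, since only its brighter members remained.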

Other observations

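Some collagen genes had exactly the same deposited value on more than 1 array. This held for 27 of the 44 collagen genes (61.4%), against 42.9% of all 19661 genes, and for 23 (52.3%) it held between arrays of different groups, against 34.4%. Of the 29 collagen genes with no call in any comparison 21 (72.4%) had such a repeat, and of the 15 with a call 6 (40%) did. For Col1a2, the 3 control arrays and Pax3 replicate 1 share the value 7.05.

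Col6a5 and Col6a6 had a second, dimmer probe set each. That of Col6a6 averaged 5.15 over the 9 arrays, where the one used averaged 6.71, and that of Col6a5 averaged 4.70, where the one used averaged 5.95. Pax7 replicate 3 was the highest of its group for 28 of the 44 collagen genes (63.6%), against 31% of all genes, and control replicate 3 for 19 (43.2%), against 39.2%.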
